A study of Mus musculus with 9 samples.

Results

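The contractile genes followed here were *Acta2*, *Tagln*, *Myl9*, *Tpm1*, *Tpm2*, *Cnn1*, *Cnn2*, *Myh11*, *Actg2* and *Lmod1*, 10 of the 54534 genes in the deposited tables, taken by symbol. Their levels were read by single-cell RNA sequencing in cells of the adult mouse knee and compared between 3 classes of cell. Mural cells, the cells of the vessel wall, were those with at least 1 unique molecular identifier (UMI, a count of 1 captured RNA molecule) of both *Rgs5* and *Notch3*, and there were 79 of them among 4788 kept cells. Lrrc15+ cells (1141 cells) carried *Lrrc15*, a gene of activated fibroblasts, and Cd34+ fibroblasts (2037 cells) carried *Cd34*, a gene of sublining fibroblasts. A cell with UMIs of several classes went to the first in that order, after endothelial and immune cells had been set aside, and none of the 10 genes took part in the choice of cells.

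The mice were *Gdf5-Cre;Tom;Pdgfrα-H2BGFP* animals aged 11 to 12 weeks, so that every library, control or injured, carried all 3 transgenes. In them tdTomato (Tom) marks descendants of the embryonic joint interzone, where *Gdf5* drives Cre, and a nuclear green fluorescent protein (GFP) is made under the *Pdgfrα* promoter, which is active in fibroblasts. Sorted Tom+ cells (the Gdf5 lineage) came from 2 steady-state libraries (labelled naive) and from 4 libraries of right knees taken 6 days after a full-thickness scratch of the trochlear groove cartilage, the injured state. Tom-GFP+ cells, which are *Pdgfrα*-expressing cells outside the Gdf5 lineage, came from 1 steady-state and 2 injured-state libraries. The 9 libraries held between 2866464 and 15033902 UMIs and between 277 and 826 kept cells, and 12 barcodes occurred in more than 1 library, none of them mural.

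Smooth muscle cells and pericytes wrap blood vessels and set their calibre by sliding actin filaments over myosin. *Acta2* encodes smooth muscle alpha-actin and *Actg2* the gamma-actin of visceral smooth muscle, *Myh11* the smooth muscle myosin heavy chain and *Myl9* its regulatory light chain. *Tpm1* and *Tpm2* encode tropomyosins, which lie along the filament, *Cnn1*, *Cnn2* and *Tagln* encode calponins and transgelin, which bind it, and *Lmod1* encodes leiomodin, which starts new filaments. Fibroblasts of healing tissue can take up part of this programme and are then called myofibroblasts, with *Acta2* as the usual marker. Serum response factor drives many of these genes through the CArG box, a short element in their promoters.

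Of the 10 genes, 7 had an entry in the set of RefSeq promoters used here (300 bases, from 250 before to 50 after the start of the transcript, build GRCm38.p6). That set held no entry for *Tagln*, *Myh11* and *Actg2*. Those of *Acta2*, *Myl9* and *Cnn2* are shown because a CArG box, searched on both strands, was found in them, exactly or with 1 mismatch among its 6 inner bases (capitals). The outer CC and GG had to match. The *Acta2* promoter is at chr19:34255324-34255623 on the minus strand, that of *Myl9* at chr2:156775214-156775513 and that of *Cnn2* at chr10:79988350-79988649, both on the plus strand.
Acta2: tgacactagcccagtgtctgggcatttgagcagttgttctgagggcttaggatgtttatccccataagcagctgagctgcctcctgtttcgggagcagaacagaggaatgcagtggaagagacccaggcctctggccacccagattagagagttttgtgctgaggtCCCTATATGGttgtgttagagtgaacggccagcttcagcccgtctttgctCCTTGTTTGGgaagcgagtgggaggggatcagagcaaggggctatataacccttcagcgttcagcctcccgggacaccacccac
Myl9: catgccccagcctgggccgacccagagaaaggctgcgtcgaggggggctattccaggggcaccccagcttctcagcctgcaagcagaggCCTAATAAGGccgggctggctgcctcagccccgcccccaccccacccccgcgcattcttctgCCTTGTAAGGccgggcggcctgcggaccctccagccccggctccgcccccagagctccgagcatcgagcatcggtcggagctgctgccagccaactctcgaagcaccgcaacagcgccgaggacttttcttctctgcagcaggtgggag
Cnn2: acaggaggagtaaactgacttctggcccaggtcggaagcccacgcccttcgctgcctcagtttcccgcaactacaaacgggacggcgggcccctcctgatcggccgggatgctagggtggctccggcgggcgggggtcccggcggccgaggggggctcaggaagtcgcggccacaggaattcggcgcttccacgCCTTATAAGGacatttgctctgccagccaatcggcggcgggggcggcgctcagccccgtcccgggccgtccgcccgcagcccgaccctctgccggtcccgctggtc
The box was exact in *Myl9* (CCTAATAAGG, starting 161 bases before the transcript) and in *Cnn2* (CCTTATAAGG, 56 bases before). *Acta2* had a pair of boxes with 1 mismatch each (CCCTATATGG and CCTTGTTTGG, 84 and 34 bases before the start), and *Myl9* had another of that kind (CCTTGTAAGG, 99 bases before). By that search no match was found in the windows of *Lmod1*, *Tpm2*, *Cnn1* and *Tpm1*. Among 32851 promoter entries of 27025 genes, 1.629% held an exact box and 9.984% a box with at most 1 mismatch. A match is a likeness of letters and not a measured binding site.

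Before the levels, the gate was checked against genes it had not used. In Tom+ injured-state libraries the summed level of 12 other mural markers was 28.94 to 57.85 UMIs per 10000 in mural cells, all 12 being detected, against 2.765 to 5.737 in Lrrc15+ cells and 2.603 to 4.058 in Cd34+ fibroblasts of the same group. These included *Des*, *Tinagl1*, *Mcam* and the pericyte genes *Kcnj8*, *Abcc9* and *Higd1b*. Of 95 cells with both gate genes, 15 had been set aside as endothelial and 1 as immune, so that the absence of *Pecam1*, *Cdh5* and *Cldn5* UMIs from the 79 is in part fixed by the choice of cells. *Kdr*, an endothelial gene that took no part in it, was also at 0 UMIs, and *Emcn* was found in 22 of 79 cells. tdTomato RNA was detected in 76 of 79 mural cells (96.2%), *Pdgfra* in 6 (7.595%) and the GFP reporter in 4 (5.063%), and *Thy1*, which fibroblasts and mural cells share, in 73 (92.41%).

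Mural cells were found in Tom+ libraries alone. There were 2 in each steady-state replicate, 38, 22, 6 and 9 in injured-state replicates 1 to 4, and 0 among 1190 Tom-GFP+ cells, which allows a share of up to 0.2521%, counting error only. The Tom-GFP+ sort selects for *Pdgfrα* promoter activity, and this gate and the lineage cannot be told apart as sources of the difference. Of Tom+ cells, 2.57% ± 1.75 (SD, n = 4) were mural in the injured state and 0.4859% ± 0.1673 (SD, n = 2) in the steady state. The groups did not overlap, and the exact 2-sided permutation test gave p = 0.133, the smallest it allows for 4 libraries against 2. Under a planned stricter filter, with 1000 genes and 5% mitochondrial UMIs as limits, the shares were 2.104% and 0.5153%. The groups then overlapped (exact permutation p = 0.267). With cells defined by *Notch3* and *Tinagl1* in place of *Rgs5* and *Notch3*, a gate chosen after the data had been seen, the shares were 2.426% and 1.307% and the groups overlapped (exact permutation p = 0.533). Lrrc15+ cells made up 30.22% ± 13.79 (SD, n = 4) of injured-state and 2.036% ± 0.5392 (SD, n = 2) of steady-state Tom+ cells, again without overlap and with p = 0.133 (exact permutation test), and without injured-state replicate 1, at 50.46%, the injured mean was 23.48%.

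Both actin genes were far higher in mural cells than in either other class. In mural cells of Tom+ injured-state replicates 1 to 4, *Acta2* (chromosome 19, 34241090 to 34255590, GRCm38) was at 99.1, 68.3, 58.9 and 24.4 UMIs per 10000 UMIs of the class. In Lrrc15+ cells of the same libraries it was at 4.33, 2.26, 4.17 and 0.83, and in Cd34+ fibroblasts at 0.679, 0.285, 0.229 and 0.499. The 3 ranges did not overlap, and within a library the mural level was 14.14 to 30.2 times that of Lrrc15+ cells and 48.88 to 256.8 times that of Cd34+ fibroblasts. *Actg2* (chromosome 6, 83512905 to 83536265) was at 8.11, 4.84, 3.91 and 1.76 in mural cells, at 0.197, 0.0228, 0.109 and 0.0232 in Lrrc15+ cells and at no more than 0.045 in Cd34+ fibroblasts. Replicate 1 was the highest and replicate 4 the lowest mural library for both actins.

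UMIs were summed over the cells of each class in each library (sums of at least 5 cells, 21 sums) and compared between classes within libraries with edgeR's quasi-likelihood test, adjusted over 11065 genes. The mural side of these tests rests on the 4 Tom+ injured-state libraries, since no other held 5 mural cells. All 10 contractile genes were higher in mural cells than in Cd34+ fibroblasts, where 6.55% of all genes tested were called higher, and all 10 were higher than in Lrrc15+ cells, where 7.71% were. *Myh11* (4 UMIs in all Cd34+ fibroblasts, 3 in all Lrrc15+ cells) and *Lmod1* (2 and 1) could pass the filter on low counts only through mural cells. Their calls were in part fixed by that filter. *Cnn1* and *Actg2*, at 15 and 31 UMIs in all Cd34+ fibroblasts, were near the floor there. For *Acta2* the fitted log2 fold change came to 6.82 over Cd34+ fibroblasts (standard error 0.47, adjusted p = 6.67e-10, edgeR) and 4.16 over Lrrc15+ cells (0.42, 2.41e-07). For *Actg2* it was 7.51 (0.38, 1.81e-11) and 5.62 (0.33, 9.96e-11). The median over all genes tested was -0.12 and -0.10 on the log2 scale. Another scaling moved that median by up to 0.19 without turning the direction of any contractile gene.

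**Figure D1:**
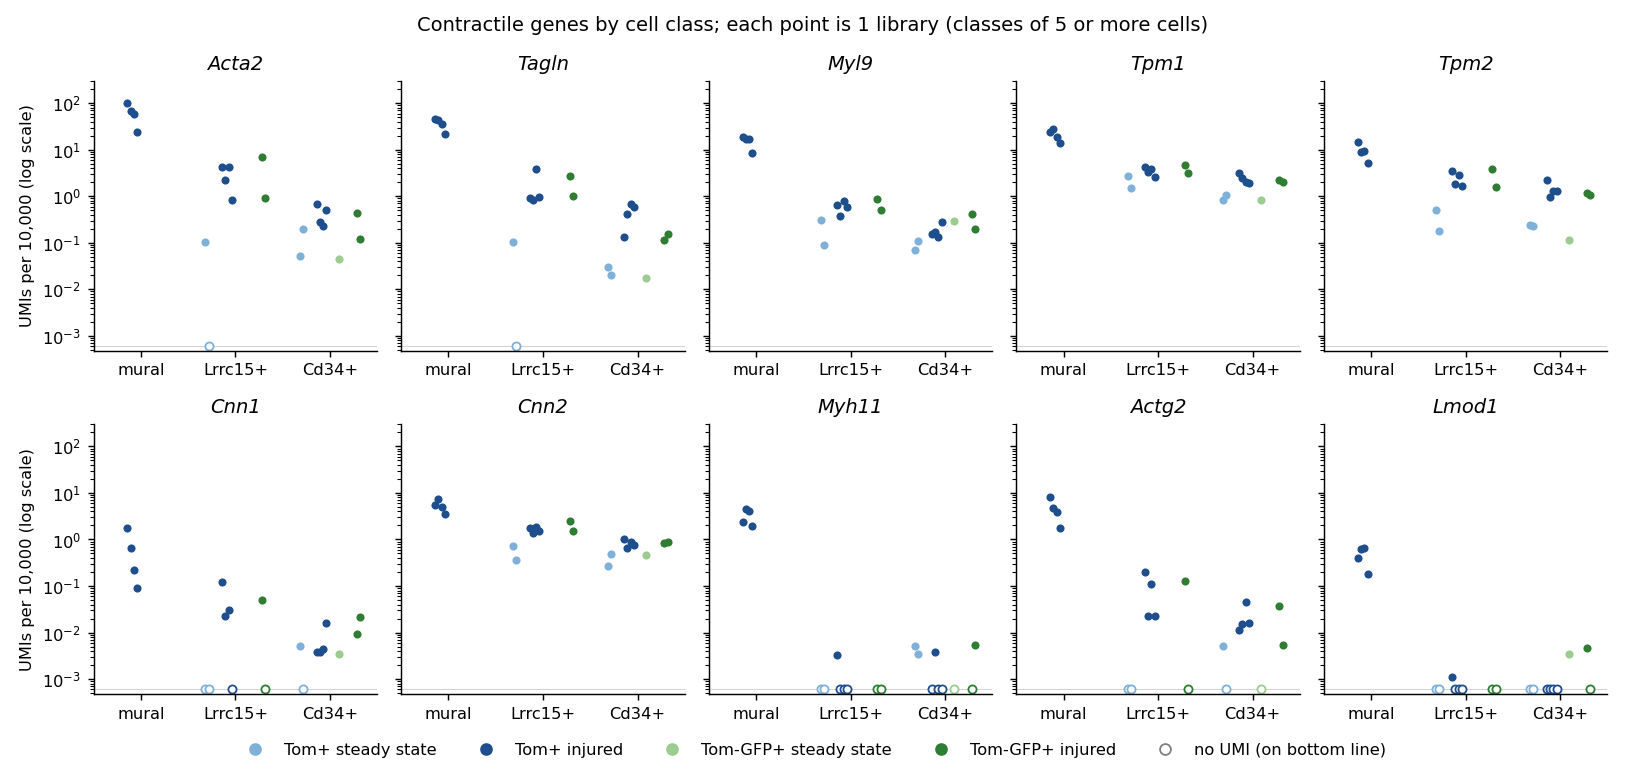
Levels of the 10 contractile genes, in UMIs per 10000 on a log scale, in mural cells, Lrrc15+ cells and Cd34+ fibroblasts. Each point is 1 library with at least 5 cells of the class, coloured by lineage and state, and open points on the bottom line had no UMI. For *Acta2* the 4 mural libraries sit between 24.4 and 99.1, above all Lrrc15+ libraries (0 to 7.11).

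*Myh11*, the myosin heavy chain (chromosome 16, 14194535 to 14291372), and *Lmod1* (chromosome 1, 135324807 to 135368065) were nearly confined to mural cells among the 3 classes. Outside these 3 classes, cells of no named class held 249 *Myh11* and 59 *Lmod1* UMIs over all libraries, and the 22 cells set aside as endothelial 44 and 5. Most of those 22 cells also carried *Rgs5* and *Notch3*, so these UMIs are not read as those of endothelial cells alone. Mural cells held 261 and 39. *Myh11* was at 2.34, 4.44, 4.13 and 1.94 per 10000 in mural cells of the injured-state replicates, from 119, 100, 19 and 21 UMIs. In the 1141 Lrrc15+ cells of all libraries 3 *Myh11* UMIs were found, all in Tom+ injured-state replicate 1, and in the 2037 Cd34+ fibroblasts 4, in 4 libraries. *Lmod1* was at 0.393, 0.621, 0.652 and 0.185 in mural cells (20, 14, 3 and 2 UMIs), with 1 UMI in all Lrrc15+ cells and 2 in all Cd34+ fibroblasts. Both passed the edgeR test against each class (adjusted p of at most 3.41e-08), but *Lmod1* did not pass with DESeq2 (adjusted p = 0.153 and 0.195), and no fold is given against so few UMIs.

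*Myl9*, *Tagln* and *Cnn1*, the light chain and the filament-binding proteins, followed the actins. *Tagln* (chromosome 9, 45929619 to 45936058) was at 44.9, 43.5, 36.1 and 22.2 per 10000 in mural cells and at 0.923, 0.812, 3.78 and 0.987 in Lrrc15+ cells, with replicate 3 standing apart in the latter. Its log2 fold change was 6.52 over Cd34+ fibroblasts (standard error 0.50, adjusted p = 4.52e-09, edgeR) and 4.34 over Lrrc15+ cells (0.50, 1.62e-06). *Myl9* (chromosome 2, 156775420 to 156781658) was at 18.6, 17.0, 17.0 and 8.41 in mural cells, against 0.379 to 0.810 in Lrrc15+ cells of those libraries. It was higher by 5.98 (0.29, 3.89e-12) and 4.51 (0.27, 5.16e-11) on the log2 scale in the same edgeR fit. *Cnn1* (chromosome 9, 22099216 to 22109630) varied most between mural libraries, at 1.81, 0.666, 0.217 and 0.0925, of which replicates 3 and 4 held 1 UMI each. Its log2 fold changes were 6.00 (0.63, 5.71e-07) and 3.99 (0.51, 7.17e-06, edgeR).

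The tropomyosins and *Cnn2*, which cells other than muscle also make, differed least. *Tpm1* (chromosome 9, 67022590 to 67049406) was at 23.9, 28.0, 18.5 and 14.2 per 10000 in mural cells, at 4.27, 3.35, 3.82 and 2.65 in Lrrc15+ cells and at 3.23, 2.47, 2.03 and 1.95 in Cd34+ fibroblasts. *Tpm2* (chromosome 4, 43514711 to 43523765) was at 14.8, 9.14, 9.57 and 5.09 in mural cells, and *Cnn2* (chromosome 10, 79988584 to 79996062) at 5.50, 7.59, 5.0 and 3.61. All 3 genes were higher in mural cells than in either other class in 4 of 4 libraries. Over Cd34+ fibroblasts the log2 fold changes were 2.92 for *Tpm1* (standard error 0.18), 2.51 for *Tpm2* (0.21) and 2.51 for *Cnn2* (0.23), and over Lrrc15+ cells 2.23, 1.66 and 1.53, with adjusted p from edgeR of at most 2.7e-05. Immune cells, which should lack the smooth muscle genes, held *Cnn2* UMIs in 75.24% of cells and at 2.479 ± 0.3201 per 10000 (SD, n = 3 Tom+ injured-state libraries), above Lrrc15+ cells at 1.638 ± 0.1945 (SD, n = 4).

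The mural library of injured-state replicate 4 was the lowest for all 10 genes. Of its 9 cells, 2 also carried *Prg4* and *Clic5*, genes of lining fibroblasts, with *Prg4* at 316.7 per 10000, *Rgs5* at 1.507 and no UMI of *Acta2*, *Tagln*, *Myl9* or *Myh11*. The summed level of 5 lining markers was 157.5 in that mural sum and 1.021 to 2.392 in the other 3. Without these 2 cells, left out after the data had been seen, the levels were 42.79 for *Acta2*, 38.90 for *Tagln*, 14.75 for *Myl9*, 3.404 for *Myh11* and 3.08 for *Actg2*. Levels also depended on the gate's edge. *Acta2* was at 93.54 in the 66 mural cells with at least 2 UMIs of both gate genes. It was at 9.404 in the 13 with exactly 1 of either, which include the 2 cells with *Prg4* and *Clic5*. Just outside the gate *Acta2* was at 18.24 in 135 cells with *Notch3* alone and at 0.4706 in 473 cells with *Rgs5* alone. Of the *Acta2* UMIs in those 135 cells, 2096 lay in 9 Tom+ steady-state cells that also carried *Tinagl1*.

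Detection per cell gave the same order. Thinned to 2000 UMIs per cell, *Acta2* UMIs were detected in 82.28% of mural cells, 20.54% of Lrrc15+ cells, 2.843% of Cd34+ fibroblasts and 5.155% of immune cells, which should lack the gene. Before thinning the shares were 87.34%, 43.73%, 9.573% and 11.43%, at median depths of 9051, 17418, 9698 and 8843 UMIs. The share in Cd34+ fibroblasts was not above that in immune cells, though 11 of 747 Tom+ injured-state Cd34+ fibroblasts held at least 10 *Acta2* UMIs, the highest 45. Free RNA and doublets as sources of these UMIs were not tested. *Myh11* was detected in 35.44% of thinned mural cells and in 0%, 0.09975% and 0% of the others. For *Actg2* the shares were 32.91%, 1.317%, 0.1995% and 1.031%, and before thinning 58.23%, 4.82%, 0.8346% and 0.9524%, where the immune share is that of 1 cell.

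Lrrc15+ cells stood between mural cells and Cd34+ fibroblasts for most of the genes, which bears on whether fibroblasts of the injured joint carry the programme of myofibroblasts. Of the 10 genes, 8 were higher in Lrrc15+ cells than in Cd34+ fibroblasts, where 4.04% of all genes tested were called higher, and *Myh11* and *Lmod1*, at 1 to 4 UMIs in each class, were not called. *Acta2* was at 4.33, 2.26, 4.17 and 0.83 per 10000 in Lrrc15+ cells of Tom+ and at 7.11 and 0.901 in those of Tom-GFP+ injured-state libraries, but at 0.104 and 0 in the 17 Lrrc15+ cells of the Tom+ steady state. Within libraries it was higher in Lrrc15+ cells than in Cd34+ fibroblasts in 7 of 8 libraries, by 2.67 on the log2 scale (standard error 0.38, adjusted p = 7.88e-05, edgeR). The contrast rests mostly on injured tissue, which gave 6 of those 8 libraries.

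*Tagln* was higher in Lrrc15+ cells by 2.18 (standard error 0.42, adjusted p = 0.00135, edgeR) and *Myl9* by 1.47 (0.23, 0.000225). *Cnn2* was higher by 0.98 (0.17, 0.000506), *Tpm2* by 0.85 (0.17, 0.00193) and *Tpm1* by 0.69 (0.14, 0.00214), in the same edgeR fit. The 2 remaining calls were less stable. *Actg2*, higher by 1.89 (0.43, 0.00581, edgeR), did not pass without Tom+ injured-state replicate 1 (1.14, adjusted p = 0.123) or with thinned cells (adjusted p = 0.111). *Cnn1*, higher by 2.01 (0.60, 0.0365, edgeR), did not pass in 8 of 21 alternatives and fell to 0.97 (adjusted p = 0.473) without that same library, which held 113 of its 127 UMIs in Tom+ injured-state Lrrc15+ cells.

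For *Myh11*, *Lmod1* and *Actg2* the ratio to *Acta2* differed between mural and Lrrc15+ cells as well as the amount. In mural cells of the 4 Tom+ injured-state libraries 259 *Myh11* UMIs stood beside 7119 *Acta2* UMIs, which is 3.638 per 100 *Acta2* UMIs and 2.359 to 7.955 by library. In Lrrc15+ cells of the same libraries 3 stood beside 5734, or 0.05232 per 100. *Lmod1* gave 0.5478 and 0.01744 per 100. *Actg2* was at 7.852 per 100 in mural and 3.732 in Lrrc15+ cells, and its range by library, 6.642 to 8.188 in mural cells, lay above that of Lrrc15+ cells, 1.008 to 4.548. *Cnn1* went the other way over the pooled cells, at 1.531 and 2.215, but its ranges overlapped (0.369 to 1.824 and 0 to 2.855). *Tagln* also overlapped, at 45.28 to 90.91 and 21.32 to 118.9, as did *Myl9*, at 18.81 to 34.47 and 14.75 to 70.63. In Cd34+ fibroblasts of these libraries *Actg2* was at 4.828 per 100, from 21 UMIs. Its range there, 1.657 to 19.61 by library, overlapped those of both other classes. These ratios are of UMIs from sums over cells and were not tested.

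**Figure D2:**
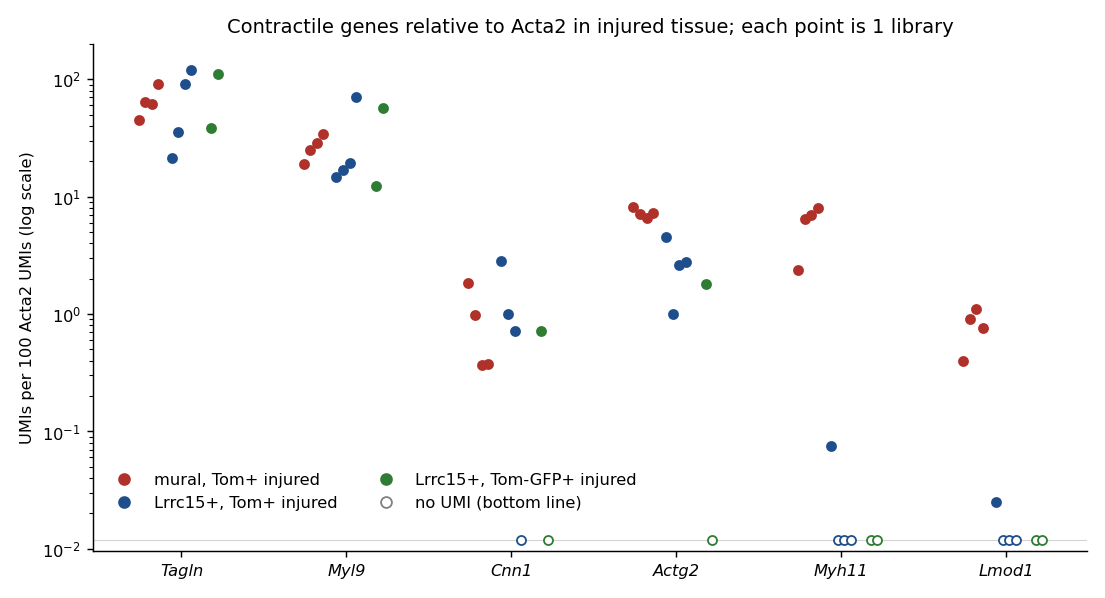
UMIs of contractile genes per 100 *Acta2* UMIs, on a log scale, in injured-state libraries by cell class. Each point is 1 library and open points on the bottom line had no UMI. *Myh11* sits between 2.359 and 7.955 in mural cells, while 5 of 6 Lrrc15+ libraries had no *Myh11* UMI.

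Few Lrrc15+ cells carried most of the *Acta2*. In the 854 Lrrc15+ cells of Tom+ injured-state libraries the median was 0 UMIs per cell and the highest 214, and the highest 10% of cells held 76.81% of the UMIs, where in mural cells the median was 33, the highest 1851 and the highest 10% held 56.85%. At least 10 *Acta2* UMIs were found in 134 of the 854 cells (15.69%), of which 94, 20, 16 and 4 came from replicates 1 to 4, and in 48 of 198 and 1 of 70 Lrrc15+ cells of the Tom-GFP+ injured-state libraries. This limit was set after the data had been seen, and the cells above it were deeper, with a median of 24357.5 against 16143 UMIs. In them *Tagln* was at 4.173 against 0.4325 per 10000 in the other 720 cells, *Myl9* at 1.721 against 0.2816, *Tpm2* at 5.85 against 2.091, *Cnn2* at 2.882 against 1.315 and *Actg2* at 0.5044 against 0.02503. They held 2 *Myh11* UMIs and 1 *Lmod1* UMI beside 5059 *Acta2* UMIs, and the mural genes *Rgs5* and *Notch3* were at 0.01386 and 0.0388 per 10000. Cells with both of these genes went to the mural class first, so these levels are in part fixed by the choice of cells. The mural genes *Tinagl1* and *Mcam*, which took no part in it, were at 0.01663 and 0.002771.

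By share of UMIs, mural cells, 2.754% of Tom+ injured-state cells, held 47.89% of that group's *Acta2* UMIs, and Lrrc15+ cells, 31.36% of cells, held 38.57%. In Tom-GFP+ injured-state libraries Lrrc15+ cells held 93.06% of *Acta2* UMIs. In the Tom+ steady state, by contrast, 91.49% of *Acta2* UMIs lay in cells outside every named class, which held 25.03% of cells. Few cells carried them. Of that group's 2514 *Acta2* UMIs, 2096 lay in 9 cells with *Notch3* and *Tinagl1* but no *Rgs5*, which the mural gate leaves out. The same 9 cells held 209 of the group's 227 *Myh11* UMIs.

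The gate on *Notch3* and *Tinagl1*, which does not ask for *Rgs5*, gave more steady-state cells. It was chosen after the data had been seen and held 5 and 6 cells of the steady state, 37, 21, 6 and 7 of the Tom+ injured-state replicates, and none of the Tom-GFP+ libraries. An injury effect on mural cells could not be fitted with the gate on *Rgs5* and *Notch3*, which left 2 cells in each steady-state library, and the following values are a description with no test. *Acta2* was at 335 and 314 per 10000 in the steady state and at 98.9, 75.8, 58.9 and 85.3 in the injured state. *Myh11* was at 35.5 and 28.9 against 2.58, 4.98, 4.13 and 5.36, and *Lmod1* at 5.25 and 6.29 against 0.540, 0.697, 0.652 and 0.574. Over all cells of this gate the states did not overlap for any of the 3, nor for *Tagln*, *Myl9*, *Tpm1*, *Tpm2* and *Cnn1*, with the steady state higher in each. The share of all genes without overlap in this gate was not counted, so the separation is not read as particular to the contractile genes. *Tagln* was at 254 and 222 against 36.1 to 80.9, and *Cnn2*, at 3.94 and 6.58 against 5.0 to 8.17, was the gene that overlapped. Among cells with *Rgs5* the direction was the opposite, with *Acta2* at 19.39, *Tagln* at 16.49 and *Myh11* at 0 in 2 steady-state cells and at 91.1, 48.11 and 3.425 in 67 injured-state cells.

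*Actg2* ran opposite to the other actin in this gate. No *Actg2* UMI was found in the 11 steady-state cells, beside 2116 *Acta2* UMIs, which allows levels of up to 0.985 and 0.858 per 10000 in the 2 libraries, whereas the 71 injured-state cells held 538 beside 7188 *Acta2* UMIs, in 41 cells and at 7.84, 5.43, 3.91 and 3.63 per 10000 by library. With the gate on *Rgs5* and *Notch3*, however, the 4 steady-state cells held 2 *Actg2* UMIs, both in replicate 2 (3.10 per 10000). *Rgs5* moved as *Actg2* did, at 3.28 and 5.15 in the steady state and 43.6, 56.3, 50.9 and 31.8 in the injured state. Of the 11 steady-state cells 9 had no *Rgs5* UMI, and in the injured state the 4 cells without *Rgs5* held 432 *Acta2* UMIs, 22 *Myh11* UMIs and none of *Actg2*. Among cells without *Rgs5*, *Acta2* was at 380.4 per 10000 in the 9 steady-state and at 75.05 in the 4 injured-state cells. *Myh11* was at 37.93 and 3.822 in them. Steady-state cells were shallower, with a median of 5681 against 9000 UMIs, and there were 11 of them. Whether the states differ in gene levels or in which mural cells were captured cannot be told apart with these cells.

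**Figure D3:**
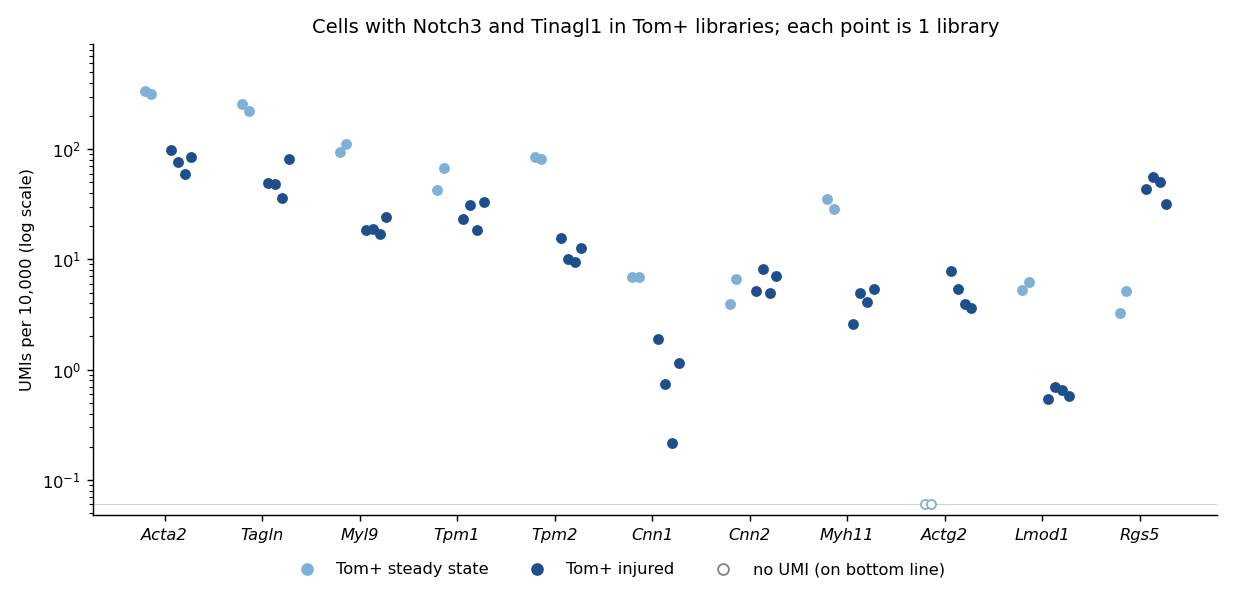
Levels in cells with *Notch3* and *Tinagl1*, in UMIs per 10000 on a log scale, in the 6 Tom+ libraries. Each point is 1 library, coloured by state, and open points on the bottom line had no UMI. *Acta2* and *Myh11* are higher in both steady-state libraries, and *Actg2*, with no UMI there, is at 3.63 to 7.84 in the injured state.

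Within the mural class, cells differed in how much of the programme they held. Of the 79 cells, 65 carried UMIs of 6 or more of the 10 genes and 7 carried all 10. *Myh11* was detected in 53 cells, with *Acta2* at 107.2, *Tagln* at 53.77 and *Actg2* at 8.438 per 10000, and not in 26, with 18.46, 12.87 and 1.391. Median depth was alike in both sets, at 9000 and 9971.5 UMIs. The 26 cells include the 2 of injured-state replicate 4 with *Prg4* and *Clic5*, which were deep, at a median of 23226.5 UMIs. Levels of the set without these 2 cells were not computed, and their part in the differences between the sets was not tested. Of 7 pericyte genes, 5 were higher where *Myh11* was detected, among them *Higd1b* at 3.936 against 3.199, *Cox4i2* at 3.385 against 2.782 and *Vtn* at 2.057 against 1.46. The other 2 were lower there, with *Kcnj8*, a subunit of a potassium channel, at 3.272 against 4.451 and *Steap4* at 1.328 against 2.191. Across the 75 mural cells of Tom+ injured-state libraries the Spearman correlation of levels was 0.866 between *Acta2* and *Tagln*, 0.804 between *Acta2* and *Tpm1*, 0.778 between *Acta2* and *Actg2*, and lowest, at 0.192, between *Myl9* and *Cnn1*. Correlations of the 7 pericyte genes with *Acta2* ran from -0.312 for *Steap4* to 0.178 for *Higd1b*, and with *Actg2* from -0.347 to 0.241 for the same 2 genes. These cells share libraries and a total of UMIs, so the correlations are descriptions.

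Injury was compared in Cd34+ fibroblasts, which every library held in number (139 to 361 cells). Cells with *Lrrc15* had gone to the Lrrc15+ class first, 30.22% of injured-state and 2.036% of steady-state Tom+ cells. In the injured state they held 5734 *Acta2* UMIs, against 435 in Tom+ Cd34+ fibroblasts. How many of them also carried *Cd34* was not counted, so these tests describe Cd34+ fibroblasts without *Lrrc15* alone. Of the 10 genes, *Cnn1*, *Myh11* and *Lmod1* were too low for the test. In Tom+ cells 4 of the 7 tested were higher in the injured state, *Tpm2*, *Tagln*, *Tpm1* and *Cnn2*, where 5.27% of 12201 genes were called higher. Of these, *Tagln* entered the test only through injured-state libraries. *Tpm2* was at 0.240 and 0.230 per 10000 in the steady-state and at 2.29, 0.966, 1.32 and 1.29 in the injured-state libraries, with no overlap. The difference was 2.55 on the log2 scale (standard error 0.33, adjusted p = 0.00258, edgeR), and it passed in all 22 alternatives.

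*Tagln* rose from 0.0306 and 0.0203 (6 UMIs in each library) to 0.135, 0.423, 0.671 and 0.594, higher by 4.11 on the log2 scale (standard error 0.73, adjusted p = 0.00841, edgeR). With so few steady-state UMIs *Tagln* passed the filter on low counts only through injured-state libraries, so its call was in part fixed by that filter. It did not pass the test without either steady-state library (adjusted p = 0.0678 and 0.0839, edgeR). *Tpm1* rose from 0.837 and 1.07 to 3.23, 2.47, 2.03 and 1.95 (1.25, standard error 0.23, adjusted p = 0.00908, edgeR), and *Cnn2* from 0.270 and 0.483 to 1.01, 0.644, 0.896 and 0.779 (1.04, 0.25, 0.0254). Neither passed without steady-state replicate 1, where *Tpm2* alone stayed past the threshold. *Cnn2* also did not pass without injured-state replicate 3 (adjusted p = 0.0560), and *Tpm1* did not with thinned cells (0.0754). Injured-state Cd34+ fibroblasts were the deeper ones, at medians of 10962.5 to 18262 against 8293 and 8708 UMIs.

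*Acta2* was at 0.0510 and 0.203 in the steady state and at 0.679, 0.285, 0.229 and 0.499 in the injured state, with no overlap, but the difference of 1.59 on the log2 scale (standard error 0.64) did not pass the test (adjusted p = 0.13, edgeR). Nor did *Myl9* (0.94, 0.41, 0.161) or *Actg2* (3.00, 1.36, 0.176). In the same cells the summed level of 10 genes of activated fibroblasts was 147.1 to 155.0 per 10000 in the steady and 355.6 to 418.3 in the injured state, and that of 5 lining markers 15.3 to 17.0 and 55.47 to 114.7. Their part in the result was not tested.

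Tom+ injured-state replicate 1 shares the older format of the gene list with the 3 steady-state libraries, while the other 5 injured-state libraries have the newer. With the format as a block *Tpm2* was higher by 3.15 (adjusted p = 5.92e-05, edgeR) and *Tagln* by 2.30 (adjusted p = 0.0108) in the injured state, and the count of calls was again 4. In Tom-GFP+ cells format and injury coincide.

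**Figure D4:**
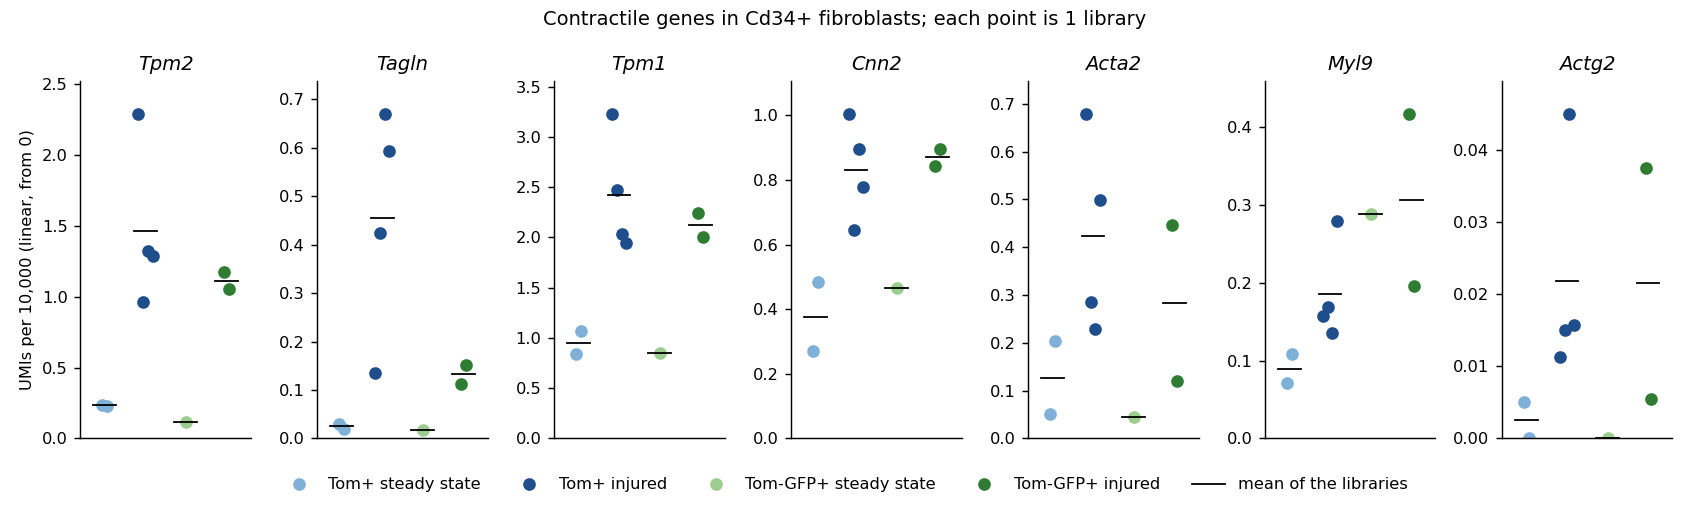
Levels of contractile genes in Cd34+ fibroblasts, in UMIs per 10000 on a linear scale from 0. Each point is 1 library, coloured by lineage and state, and lines are group means. *Tpm2* sits at 0.117 to 0.240 in the 3 steady-state libraries and at 0.966 to 2.29 in the 6 injured-state libraries.

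In Tom-GFP+ Cd34+ fibroblasts, *Tpm2* was the single gene of the 7 that passed, where 0.279% of genes were called higher. It was at 0.117 in the steady-state library and at 1.17 and 1.06 in the injured-state libraries, higher by 3.19 on the log2 scale (standard error 0.50, adjusted p = 0.0323, edgeR), where the spread of the other groups stands in for that of the single steady-state library. The call was lost without either Tom-GFP+ injured-state library (adjusted p = 0.105 and 0.167), without either Tom+ steady-state library (0.0575 and 0.0587) or without Tom+ injured-state replicate 3 (0.0529). The other log2 fold changes were 2.60 for *Acta2* (standard error 1.06, adjusted p = 0.252, edgeR), 2.84 for *Tagln* (1.13, 0.242), 1.26 for *Tpm1* (0.32, 0.0866) and 0.84 for *Cnn2* (0.35, 0.262). *Myl9*, at 0.03 (standard error 0.49, adjusted p = 0.985, edgeR), was at 0.289 in the steady state and at 0.417 and 0.196 after injury. The difference of the injury effects between lineages was tested as an interaction, in which 0 of the 7 genes and 0 of 12201 genes (0%) passed in edgeR, 0 of the 7 in DESeq2, and 292 genes (2.39%) had an unadjusted p under 0.05, none of them contractile.

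Between the lineages, 0 of 7 genes passed in injured-state Cd34+ fibroblasts (0.0246% of all genes in either direction), 0 of 7 in the steady state (0.0328%) and 0 of 8 in injured-state Lrrc15+ cells (0.121% of 10742 genes), in edgeR and in DESeq2. At an unadjusted p under 0.05 there was 1 gene in the first (*Tagln*, beside 5.31% of all genes), 1 in the second (*Myl9*, 4.65%) and 0 in the third (5.65%). *Tagln* in injured-state Cd34+ fibroblasts was at 0.135 to 0.671 in Tom+ and at 0.113 and 0.152 in Tom-GFP+ libraries, higher in Tom+ by 1.80 (standard error 0.57, adjusted p = 0.703, edgeR). It passed without Tom+ injured-state replicate 1 (2.12, adjusted p = 0.0284), where Tom+ libraries were at 0.423 to 0.671. *Acta2* in Lrrc15+ cells was at 0.83 to 4.33 in Tom+ and at 7.11 and 0.901 in Tom-GFP+ libraries, a log2 difference of -0.48 (standard error 0.78, adjusted p = 1.0, edgeR), and turned to 1.69 without Tom-GFP+ injured-state replicate 1. With 2 Tom-GFP+ libraries and standard errors of 0.57 to 0.78 these tests do not show that the lineages are alike.

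Other genes of contraction were counted from 3 lists. Of 16 partners of smooth muscle contraction, 11 were tested in the class fit. In mural cells 10 were higher than in Cd34+ fibroblasts (median 2.55), where 6.55% of all genes tested were called higher. Against Lrrc15+ cells 9 were higher (2.94), where 7.71% of all genes were. None was lower, where 9.48% and 10.3% of all genes tested were called lower. The leading ones over Cd34+ fibroblasts included *Mylk*, the kinase of the light chain (7.25), *Ppp1r14a*, an inhibitor of myosin phosphatase (7.24), and *Des*, the intermediate filament desmin (5.89). *Pdlim3* and *Synpo2* were also called, but no Cd34+ library was above 0.02814 and 0.04081 per 10000 for them. They may have passed the filter on low counts only through mural cells, so their calls may be in part fixed, and no fold is given. Between Lrrc15+ cells and Cd34+ fibroblasts 1 partner was higher (*Csrp1*, 0.91) and 1 lower (*Des*, -1.68), where 4.04% and 6.75% of all genes were called. The median of the partners there was 0.01, beside -0.02 for all genes tested. For the 10 contractile genes, with *Myh11* and *Lmod1* near the floor among them, it was 1.23.

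Of 16 genes of the non-muscle actin and myosin skeleton, all tested, 8 were higher and 1 lower in mural cells than in Cd34+ fibroblasts (6.55% and 9.48% of all genes). *Cald1*, caldesmon, was higher by 2.83, *Actn1* by 1.94 and *Myh9* by 1.84, while *Myh10*, another non-muscle myosin heavy chain, was lower at -2.08. Against Lrrc15+ cells 6 were higher and 3 lower (7.71% and 10.3% of all genes), *Myh10* (-1.69) and *Actg1* (-0.71) among the latter. Lrrc15+ cells exceeded Cd34+ fibroblasts in 6, led by *Actn1* (0.95) and *Vcl*, vinculin (0.73), and were lower in 1. Of all genes tested, 4.04% were called higher and 6.75% lower there. Of 21 regulators, 18 were in the files and 17 were tested. In mural cells *Klf4*, a repressor of smooth muscle genes, was lower than in Cd34+ fibroblasts (-2.13), as was *Tgfbr2* (-1.85), and *Ppp1r12a* (1.64) and *Mkl2*, a coactivator of serum response factor (1.12), were higher. In Lrrc15+ cells *Srf* (0.84) was higher and *Klf4* (-0.86), *Foxo1* (-1.20) and *Ctgf* (-0.99) lower than in Cd34+ fibroblasts. With injury in Tom+ Cd34+ fibroblasts 3 genes of these lists were higher (*Csrp2*, 1.99; *Cald1*, 0.77; *Ctgf*, 1.60) and 2 lower (*Ppp1r12b*, -1.58; *Tgfb2*, -0.86) of 43 tested, near the 5.27% and 8.22% of all genes, and none was called in Tom-GFP+ cells, in the interaction or between lineages.

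The genes whose levels ran most like the mean of the 10 contractile genes over the 21 sums of class and library were *Fabp5* (Spearman correlation 0.966), *Gpr176* (0.949), *Rian* (0.940), *Csrp1* (0.939), *Enah* (0.930), *Idh2* (0.930), *Cald1* (0.927) and *Tcim* (0.924). The sums share libraries and classes, and these values are a ranking with no test. *Fabp5*, a fatty acid binding protein, was at 3.735 per 10000 in mural cells, 1.325 in Lrrc15+ cells and 0.205 in Cd34+ fibroblasts.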

How the data were processed

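Cells of the knee were released with collagenase, sorted, and sequenced with a droplet-based 5′ kit (version 2). The authors made the deposited files, which hold raw UMI counts per gene and cell, with Cell Ranger on build GRCm38.p6. The version, 3.0.2, stands in the headers of 5 injured-state libraries and is not given in the sources used here for the other 4. Cells were kept with 500 genes or more, 1000 UMIs or more and no more than 10% of UMIs from mitochondrial genes, which left 4788 of 5161 barcodes. Immune and endothelial cells were set aside by at least 2 of 4 markers each. Doublets were not removed, and leaving out the 5% of cells with the highest Scrublet scores (scanpy 1.11.5) was an alternative.

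UMI counts were summed per class and library, for at least 5 cells, and tested with edgeR 4.0.16 (quasi-likelihood F test, TMM scaling, filterByExpr, R 4.3.3) with the library as a block between classes and by group within a class. P-values were adjusted by Benjamini-Hochberg over all genes tested at a false discovery rate of 0.05. Residual degrees of freedom were 10 for the class fit, 5 for Cd34+ fibroblasts and 4 for Lrrc15+ cells. DESeq2 1.42.0 was an alternative, and the steps were tested on simulated data. There, unchanged genes made up 2.6% (injury in Tom+ Cd34+ fibroblasts) to 17.4% (injury in Tom-GFP+ Cd34+ fibroblasts) of the calls. They made up 9.28% for Lrrc15+ cells over Cd34+ fibroblasts. Of 4-fold changes 19% to 100% were recovered and of 2-fold changes 0% to 82.8%, the least for injury in Tom-GFP+ cells. Levels are UMIs per 10000. Shares were compared by exact permutation (scipy 1.17.1), and intervals and limits cover counting error only. Positions are from GENCODE vM21. The study counts mice as replicates and calls the Tom-GFP+ mice matched, without saying here to which Tom+ mice, so no pairing was assumed. P-values measure the spread between these libraries. The genes, classes and lists were chosen with earlier results of these data known. All 10 genes were reported in every comparison, and up to 8 called genes of a list were named by the size of their fold change.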

Additional observations from a re-analysis of the deposited data

Results flagged for a closer look

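Among groups of 4 libraries, a library was looked at again when its distance from the nearest other exceeded Dixon's 95% critical share of the group's range, which chance alone gives in about 1 in 20 groups. This held in 7 of 31 groups of Tom+ injured-state libraries. *Myl9* in mural cells of replicate 4 was at 8.41 per 10000, below the nearest other at 17.0, and that sum holds the 2 cells with *Prg4* and *Clic5*. *Tagln* in Lrrc15+ cells of replicate 3 was at 3.78, above the next at 0.987. *Actg2* in Cd34+ fibroblasts of replicate 3 was at 0.045, above the next at 0.0157 (10 and 4 UMIs). The remaining 4 rest on 1 to 4 UMIs. *Cnn1* in Cd34+ fibroblasts was at 0.0157 in replicate 4 with the next at 0.0045, and *Myh11* there was at 0.00374 in replicate 2 with the others at 0. In Lrrc15+ cells of replicate 1 *Myh11* was at 0.00328 and *Lmod1* at 0.00109, with the others at 0.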

How the results depend on the processing

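Of the counts of called genes and shares of cells, 203 values under an alternative were close to the reported one (within 1.5 times for counts) and 14 moved. Of the single genes, 948 kept direction and call, 24 lost and 12 gained the call, and 8 turned sign. The count for mural cells stayed between 8 and 10 of 10 against both classes, and that for Lrrc15+ cells over Cd34+ fibroblasts between 6 and 8. For injury in Tom+ Cd34+ fibroblasts, 4 became 1 to 4 when a library was left out, 1 being without Tom+ steady-state replicate 1, and 6 with no filter on low counts. For injury in Tom-GFP+ cells, 1 became 2 with DESeq2, 4 with no filter, 2 with the format block and 0 to 3 when a library was left out, 3 being without Tom+ injured-state replicate 1. Between lineages in injured-state Cd34+ fibroblasts, 0 became 1 with no filter, 1 with the format block and 0 to 1 when a library was left out, 1 being without Tom+ injured-state replicate 1 (*Tagln* each time), and in the steady state 0 became 1 with no filter (*Myl9*). The causes were not tested. The mural share rose by 1.272 to 2.555 percentage points over the libraries left out (2.084 in all), and was lowest without Tom+ injured-state replicate 1.

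Signs turned for *Myl9* with injury in Tom-GFP+ cells (-0.03 with *Cd34* and *Pdgfra* both required, -0.56 to 0.45 over the libraries left out, the lowest without Tom-GFP+ injured-state replicate 1, and -0.35 with the format block). They also turned between lineages for *Acta2* in Cd34+ fibroblasts (-0.04 to 1.82 over the libraries left out, the lowest without Tom-GFP+ injured-state replicate 2) and in Lrrc15+ cells (-1.31 to 1.69 over the libraries left out, the highest without Tom-GFP+ injured-state replicate 1, and 0.24 with the replicate block), and for *Tagln* in Lrrc15+ cells (0.03 with thinned cells, and -1.07 to 0.69 over the libraries left out, the highest without Tom-GFP+ injured-state replicate 1). None of these passed the test in either direction. No source used here says that a replicate number marks a shared mouse. Same-numbered sums correlated at -0.032 to 0.08 in Cd34+ fibroblasts and at 0.376 and 0.098 in Lrrc15+ cells, in their deviations from the group means, and no pairing was assumed. With the replicate block the counts with injury were 3 in Tom+ (*Cnn2* lost, adjusted p = 0.107, edgeR) and 1 in Tom-GFP+ cells, and 0 in each lineage comparison and the interaction. An injury effect in mural cells was not run, for want of steady-state cells. With 2 steady-state Tom+ libraries and 1 of Tom-GFP+, small effects are not detectable here.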

Other observations

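In lining cells (*Clic5* and *Prg4*) *Tagln* was at 1.65 and 7.65 per 10000 in lining cells of the Tom+ steady-state libraries and at 0.184 to 0.978 in the other 7. In Tom+ steady-state replicate 2, 3 of 33 lining cells held at least 20 *Tagln* UMIs each, the highest 210 and 114, beside 47 *Acta2* UMIs in these 3 cells and 0 of *Myh11*.

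The *Acta2*-rich Lrrc15+ cells of Tom+ injured-state libraries had the cell cycle gene *Mki67* at 0.4748, 0.6273, 0.2987 and 0 per 10000 in replicates 1 to 4, against 0.287, 0.135, 0.09308 and 0.01816 in the other Lrrc15+ cells of the same libraries. It was higher in 3 of 4 libraries, replicate 4 having 4 such cells. In Tom-GFP+ injured-state replicate 1 it was at 0.2043 against 0.1726. In Tom-GFP+ injured-state replicate 2, with 1 such cell, it was at 0 in both sets. The *Acta2*-rich cells, those with at least 10 *Acta2* UMIs, were deeper, at a median of 24357.5 against 16143 UMIs in Tom+ injured-state libraries. The part of depth in the *Mki67* levels was not tested. The comparison was made after the data had been seen and was not tested.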
